A study of Mus musculus with 16 samples.

Results

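Cyclins are the regulatory subunits that switch on cyclin-dependent kinases (CDKs), and each class acts in its own stretch of the cell cycle. D-type cyclins (Ccnd1, Ccnd2 and Ccnd3) work with Cdk4 and Cdk6 in G1 and link growth signals to the inactivation of the retinoblastoma protein. E-type cyclins (Ccne1 and Ccne2) act with Cdk2 at the entry into S phase, cyclin A2 (Ccna2) acts in S phase and G2, and the B-type cyclins (Ccnb1 and Ccnb2) drive mitosis with Cdk1. Cyclin F (Ccnf) activates no CDK and is the substrate-binding subunit of a ubiquitin ligase, and cyclin G2 (Ccng2) is an atypical cyclin that is high in resting cells and is activated by FoxO factors. In naive T cells, which rest in G0, most of these transcripts are known to be low, and engagement of the T cell receptor starts the cycle. The 10 genes named here were chosen by symbol, and all 10 were found among the 34573 gene symbols of the count matrix.

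Their transcripts were read in 12 RNA-seq libraries of CD8+ T cells from the spleen of C57BL/6 mice, 3 libraries for each of 4 sorted states. Tn cells were naive cells at day 0, sorted as CD8+ CD44- CD62L+. The other 3 states came from naive cells cultured with antibodies to CD3e and CD28, each at 10 µg/ml, with IL-2 at 300 U/ml added after the first night. Those sorted as CD8+ PD-1+ TIM-3- are Teff1 when taken at day 2 and Teff2 when taken at day 5, and those sorted as CD8+ PD-1+ TIM-3+ at day 5 are Tex. PD-1 and TIM-3 are inhibitory receptors, and the activated states differ from Tn in both stimulation and time in culture. RNA came from 0.2 M cells per sample, and no label says if a replicate was its own animal or culture, so the p-values below cover only the spread between these libraries, which may be technical. Age and sex of the mice are not given in the sources used here.

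Library totals ran from 14.7 to 21.2 M counts, and Pearson's r of log2 CPM between replicates of a state was 0.955 to 0.989, with replicate 1 of Teff2 and Tex the farthest from the other two. All 6 markers of CD8 T cells were detected in every state, with a summed level of 2686 to 4256 CPM in Tn and 2094 to 2566 CPM in the activated libraries (CPM, counts per 1 M counts of the TMM-scaled library). Markers of other spleen cells were highest in Tn. The sum of 5 B cell markers was 461, 36.8 and 965 CPM in Tn replicates 1, 2 and 3 and 5.35 to 9.03 CPM in the activated libraries. The 4 antigen-presentation genes summed to 1343, 112 and 2028 CPM in Tn and to 29.1 to 121 CPM after activation. For 7 macrophage and monocyte markers the Tn sums were 285, 79.3 and 145 CPM, and in the activated libraries they were at most 1.33 CPM, with C1qa, C1qb, C1qc, Marco and Vcam1 at 0 in all Teff2 libraries and Marco at 0 in all Tex libraries. The 4 NK cell markers summed to 45.3, 2.45 and 99.3 CPM in Tn and to 0.57 to 9.17 CPM after activation (Klra8 was at 0 in Teff1, and Ncr1 and Klra8 in Teff2). Stromal and endothelial markers (5 genes) summed to 161 to 180 CPM in Tn and 18.2 to 83.0 CPM after activation, with Cdh5 at 0 in the activated libraries. The calls against Tn are therefore also given without Tn replicates 1 and 3, and without replicate 1 of the activated states.

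The promoters of the mitotic cyclins are shown because Ccnb1, Ccnb2 and Ccnf had some of the largest differences from naive cells and moved together across libraries. Each stretch is the 250 bases upstream of the annotated start, 5′ to 3′ on the gene's own strand (RefSeq, GRCm38.p6): Ccnb1 at chr13:100786487-100786736, Ccnb2 at chr9:70421555-70421804 and Ccnf at chr17:24251410-24251659, all on the minus strand. Capitals mark matches, on either strand, to CCAAT (the NF-Y box), TTTGAA (the cell cycle homology region of genes expressed in G2 and mitosis) or TTNGCGC (E2F).
Ccnb1: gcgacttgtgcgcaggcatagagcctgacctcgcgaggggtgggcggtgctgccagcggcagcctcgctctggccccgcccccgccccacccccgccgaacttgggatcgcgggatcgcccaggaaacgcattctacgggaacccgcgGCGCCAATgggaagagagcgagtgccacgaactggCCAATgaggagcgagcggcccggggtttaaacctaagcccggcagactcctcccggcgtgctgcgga
Ccnb2: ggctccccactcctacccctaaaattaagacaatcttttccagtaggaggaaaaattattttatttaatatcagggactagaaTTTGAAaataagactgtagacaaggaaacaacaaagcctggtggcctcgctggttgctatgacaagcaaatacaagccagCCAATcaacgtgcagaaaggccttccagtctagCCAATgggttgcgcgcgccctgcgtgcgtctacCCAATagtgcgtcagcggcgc
Ccnf: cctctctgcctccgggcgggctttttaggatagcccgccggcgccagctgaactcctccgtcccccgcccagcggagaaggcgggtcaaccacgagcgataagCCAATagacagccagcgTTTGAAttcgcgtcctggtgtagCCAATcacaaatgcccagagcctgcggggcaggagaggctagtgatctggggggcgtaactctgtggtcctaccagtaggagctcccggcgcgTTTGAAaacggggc
Ccnb1 held 2 CCAAT boxes whose first bases lay 32 bases apart, and its single TTNGCGC match, on the other strand, shared 4 bases with the upstream box. Ccnb2 held 3 CCAAT boxes spaced 33 and 33 bases apart, and 1 TTTGAA upstream of them. Ccnf held 2 CCAAT boxes 40 bases apart and 2 TTTGAA, the nearer of which ended 9 bases before the start.

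Among 32851 RefSeq promoters of this length, 33.8% held at least 1 CCAAT, 10.1% at least 2, 16.0% TTTGAA and 5.19% TTNGCGC (the count of at least 2 was added after the matches were seen). RefSeq promoters were at hand for 6 of the 10 cyclins, 7 promoters in all, since Ccnd3 has 2. Those of Ccng2 and Ccne1 held no match to any motif searched. Of the Ccnd3 promoters, the upstream one held GTAAACA (FoxO, on the other strand; 3.17% of promoters) and 1 CCAAT was in the other promoter. None of the 7 held TTCGAA (the other form of the cell cycle homology region, 1.34% of promoters), CACGTG (the E-box, 6.02%) or TTCNNNGAA (STAT, 7.02%). A match is a string of letters and was not tested for binding.

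Against naive cells, 7 of the 10 cyclins were higher in each activated state, 1 was lower and 2 were not called. Ccna2, Ccnb1, Ccnb2, Ccnf, Ccne1, Ccne2 and Ccnd2 were higher in Teff1, Teff2 and Tex, Ccnd1 was lower in all 3, and Ccnd3 and Ccng2 did not pass. The calls come from edgeR's quasi-likelihood F test on all 12 libraries, at an adjusted p under 0.05 over 14332 genes. The background is broad: of all genes tested, 24.5% were higher and 24.5% lower in Teff1, 25.6% higher and 23.3% lower in Teff2, and 27.3% higher and 25.6% lower in Tex. Over the 10 cyclins the median log2 fold change was 2.17 for Teff1, 1.86 for Teff2 and 2.03 for Tex, and over all genes it was -0.06, 0.00 and 0.00. All 10 passed the filter on low counts. The 3 comparisons share the Tn libraries, so they are not independent of each other. In bulk samples a change in the number of cells of one type and a change in RNA per cell cannot be told apart.

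**Figure D1:**
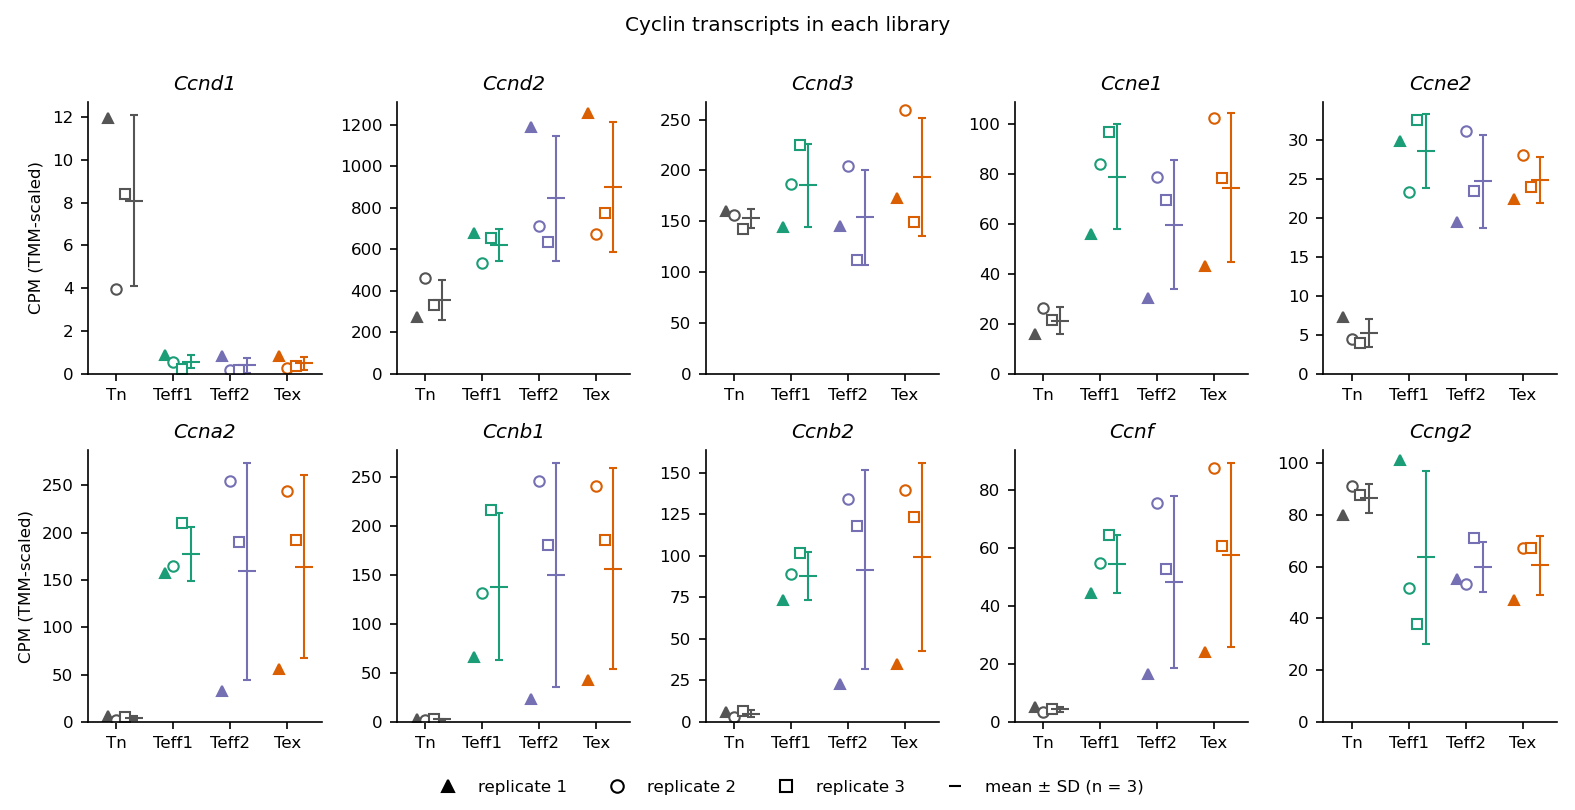
Level of each cyclin in every library (CPM, TMM-scaled, linear axes from 0), with replicate 1 as filled triangles and the mean ± SD of the 3 libraries of a state beside the points. Ccna2, Ccnb1, Ccnb2 and Ccnf are at most 6.29 CPM in the naive libraries, and in Teff2 and Tex their replicate 1 lies between naive cells and the other 2 replicates.

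Of the D-type cyclins, Ccnd2 was the one that rose. Ccnd2 (chromosome 6, 127125162 to 127152188, GRCm38.p6 as for all positions here) stood at 273, 463 and 331 CPM in Tn replicates 1, 2 and 3. It was at 676, 534 and 653 CPM in Teff1, at 1188, 712 and 633 CPM in Teff2 and at 1258, 672 and 774 CPM in Tex. Every activated library was above every naive one, and the activated states overlapped each other. Means ran in the order Tn (356 ± 97.3 CPM, SD, n = 3), Teff1 (621 ± 76.4), Teff2 (845 ± 300) and Tex (901 ± 313), and the steps from Teff1 to Teff2 and from Teff2 to Tex did not exceed the spread. In edgeR's fit the log2 fold change from Tn was 0.80 (SE 0.30, adjusted p = 0.0415) for Teff1, 1.25 (adjusted p = 0.00497) for Teff2 and 1.34 (adjusted p = 0.00296) for Tex, with the same SE. The Teff1 call was lost when any of 4 single libraries was left out: adjusted p was 0.0853 without Teff1 replicate 1, 0.0909 without Teff1 replicate 3, 0.142 without Tn replicate 1 and 0.110 without Tn replicate 3.

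Ccnd3, the D-type cyclin known to be needed for the expansion of immature T cells in the thymus, passed the test in no comparison with naive cells. Ccnd3 (chromosome 17, 47505051 to 47599689) stood at 160, 156 and 143 CPM in Tn, 144, 187 and 225 CPM in Teff1, 145, 204 and 112 CPM in Teff2, and 172, 259 and 149 CPM in Tex. The 4 states overlapped, with means of 153 ± 9.11, 185 ± 40.5, 154 ± 46.8 and 194 ± 58.0 CPM (SD, n = 3 each). No comparison with Tn passed in edgeR's fit (log2 0.28, 0.01 and 0.34 in Teff1, Teff2 and Tex, with adjusted p = 0.386, 0.977 and 0.278). Within a library, the log2 ratio of Ccnd3 to Ccnd2 counts averaged -1.19 ± 0.40 for Tn, -1.76 ± 0.41 for Teff1, -2.44 ± 0.62 for Teff2 and -2.20 ± 0.76 for Tex (SD, n = 3 each). Teff2 lay below Tn in every library, which an exact two-sided permutation test scored at p = 0.1, the smallest that 3 against 3 allows (adjusted p = 0.333 over 5 comparisons). In Tex against Tn the groups overlapped (difference -1.02, exact permutation p = 0.2, adjusted p = 0.333). Exon lengths were not at hand, so the ratio does not say which of the genes has more transcripts.

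Ccnd1, the main D-type cyclin of many tissues other than blood, was the one cyclin that fell over all libraries. Ccnd1 (chromosome 7, 144929931 to 144939831) had 180, 58 and 156 counts in Tn, 18, 12 and 4 counts in Teff1, 16, 3 and 3 counts in Teff2, and 15, 5 and 7 counts in Tex. As levels these were 11.9, 3.95 and 8.38 CPM in Tn, and between 0.16 and 0.86 CPM in the activated libraries. Every naive library lay above every activated one, with means of 8.09 ± 4.00 CPM for Tn, 0.56 ± 0.31 for Teff1, 0.49 ± 0.30 for Tex and 0.39 ± 0.37 for Teff2 (SD, n = 3 each). The log2 fold change was -3.83 (SE 0.71, adjusted p = 0.00107) in Teff1, -4.32 (SE 0.73, adjusted p = 0.000609) in Teff2 and -4.04 (SE 0.72, adjusted p = 0.000704) in Tex by edgeR's quasi-likelihood test. Without Teff2 replicate 1 the fold from Tn to Teff2 went from 20.0 to 43.7. In Tn, Ccnd1 was highest in replicate 1 and lowest in replicate 2, and so was the macrophage and monocyte sum (285, 79.3 and 145 CPM). The sums for B cells, antigen presentation, NK cells, and stromal and endothelial cells were highest in replicate 3 instead. Within the stromal and endothelial list, however, Col1a1 (4.64, 1.63 and 0.91 CPM) and Col1a2 (6.30, 1.16 and 0.43 CPM) were highest in replicate 1. So were Col3a1 (3.12, 0.27 and 0.21 CPM) and Cdh5 (1.86, 0.82 and 0.70 CPM), and Pecam1, the remaining gene, makes up the rest of that sum. Without Tn replicates 1 and 3, the log2 fold change in Teff1 was -2.81 and was no longer called (adjusted p = 0.0516), and in Teff2 and Tex it was -3.30 (adjusted p = 0.0290) and -3.03 (adjusted p = 0.0341). The part of the other cells' RNA in the Ccnd1 level was not tested.

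Both E-type cyclins rose. Ccne1 (chromosome 7, 38097984 to 38107490) was at 15.9, 26.5 and 21.6 CPM in Tn, 55.9, 84.2 and 96.8 CPM in Teff1, 30.5, 79.0 and 69.8 CPM in Teff2, and 43.1, 102 and 78.3 CPM in Tex. The naive libraries were lowest, and replicate 1 was the lowest library of each activated state. Its means were 21.3 ± 5.30 CPM in Tn, 59.7 ± 25.8 in Teff2, 74.6 ± 29.8 in Tex and 79.0 ± 20.96 in Teff1 (SD, n = 3 each), and the activated states overlapped. From Tn the log2 fold change was 1.89 (SE 0.39, adjusted p = 0.0022) in Teff1, 1.48 (SE 0.39, adjusted p = 0.00802) in Teff2 and 1.81 (SE 0.39, adjusted p = 0.00246) in Tex in edgeR's fit.

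Ccne2 (chromosome 4, 11190433 to 11204779) stood at 7.36, 4.43 and 3.98 CPM in Tn, 30.0, 23.3 and 32.6 CPM in Teff1, 19.5, 31.2 and 23.5 CPM in Teff2, and 22.5, 28.2 and 24.0 CPM in Tex. Activated libraries were all above naive ones, and at day 5 its replicates lay closer together than those of Ccne1, with means of 24.8 ± 5.96 in Teff2, 24.9 ± 2.93 in Tex and 28.6 ± 4.78 in Teff1 against 5.25 ± 1.84 in Tn (CPM, SD, n = 3 each). By edgeR, Teff1, Teff2 and Tex differed from Tn by a log2 fold change of 2.45, 2.24 and 2.25 (SE 0.27 each), with adjusted p = 4.72e-05, 7.21e-05 and 5.97e-05. As a log2 ratio of counts, Ccne2 to Ccne1 averaged -2.05 ± 0.81 for Tn, -1.50 ± 0.49 for Tex, -1.44 ± 0.49 for Teff1 and -1.18 ± 0.48 for Teff2 (SD, n = 3 each). Exact permutation p was 0.3 to 0.5 in the 5 comparisons of this ratio, each with an adjusted p of 0.5.

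Ccna2, Ccnb1, Ccnb2 and Ccnf had the largest increases of the 10 over all libraries. Ccna2 (chromosome 3, 36564865 to 36573038) was at 5.97, 2.18 and 5.11 CPM in Tn, 157, 164 and 210 CPM in Teff1, 32.6, 255 and 190 CPM in Teff2, and 56.1, 244 and 193 CPM in Tex. The lowest activated library, Teff2 replicate 1, was still above every naive one. The mean was 4.42 ± 1.99 CPM in Tn, 159 ± 114 in Teff2, 164 ± 96.9 in Tex and 177 ± 28.8 in Teff1 (SD, n = 3 each). The log2 fold change from Tn was 5.32 (SE 0.78, adjusted p = 0.000255) in Teff1, 5.16 (SE 0.77, adjusted p = 0.000275) in Teff2 and 5.21 (SE 0.77, adjusted p = 0.000221) in Tex in edgeR's fit.

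Ccnb1, the cyclin that brings Cdk1 into mitosis, had the largest fold change of the 10 over all libraries (chromosome 13, 100778739 to 100786486; its promoter is the first of those above). It stood at 3.38, 2.38 and 3.12 CPM in Tn, 66.4, 132 and 217 CPM in Teff1, 23.4, 246 and 181 CPM in Teff2, and 42.4, 241 and 186 CPM in Tex. Naive libraries were close to each other and activated ones spread widely, with replicate 1 lowest in each activated state. Means rose from 2.96 ± 0.52 CPM (Tn) to 138 ± 75.3 (Teff1), 150 ± 114 (Teff2) and 157 ± 103 (Tex; SD, n = 3 each). By edgeR the increase was 46.5-fold in Teff1, 50.5-fold in Teff2 and 52.7-fold in Tex, or 5.54, 5.66 and 5.72 on the log2 scale (SE 0.91 to 0.92), with adjusted p = 0.000522, 0.000456 and 0.00037.

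Ccnb2, the second B-type cyclin (chromosome 9, 70407689 to 70421554), was at 5.97, 2.79 and 6.29 CPM in Tn, 73.1, 88.8 and 102 CPM in Teff1, 22.9, 134 and 118 CPM in Teff2, and 34.8, 140 and 123 CPM in Tex. Its means were 5.02 ± 1.93, 87.8 ± 14.2, 91.7 ± 60.1 and 99.3 ± 56.5 CPM in the same order (SD, n = 3 each), again with no overlap between naive and activated libraries. In edgeR's fit the log2 fold change was 4.12, 4.18 and 4.30 for Teff1, Teff2 and Tex (SE 0.68 each), with adjusted p = 0.000522, 0.000466 and 0.000343. A processed copy, Ccnb2-ps, is counted apart with 532 counts over the 12 libraries, at most 95 in any, and Ccnd3-ps with 31, at most 6, and how reads shared with such a copy were assigned is not given in the sources used here. Ccnb2 counts relative to Ccnb1 counts gave a log2 ratio of 0.69 ± 0.41 for Tn, -0.51 ± 0.62 for Teff1, -0.51 ± 0.43 for Teff2 and -0.55 ± 0.25 for Tex (SD, n = 3 each). Every activated library was below every naive one, so the exact permutation p was 0.1 for each state against Tn, the smallest the design allows (adjusted p = 0.167).

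Ccnf (chromosome 17, 24223230 to 24251409) followed the B-type cyclins. It was at 5.17, 3.27 and 4.57 CPM in Tn, 44.6, 54.8 and 64.5 CPM in Teff1, 16.5, 75.6 and 52.7 CPM in Teff2, and 24.2, 87.7 and 60.8 CPM in Tex. Means were 4.34 ± 0.97 CPM in Tn, 48.3 ± 29.8 in Teff2, 54.6 ± 9.97 in Teff1 and 57.6 ± 31.9 in Tex (SD, n = 3 each), and naive and activated libraries did not overlap. The log2 fold change was 3.65 (SE 0.57, adjusted p = 0.000353) in Teff1, 3.47 (SE 0.56, adjusted p = 0.000456) in Teff2 and 3.73 (SE 0.57, adjusted p = 0.00026) in Tex in edgeR's fit.

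Ccng2, the cyclin of resting cells (chromosome 5, 93267573 to 93276231), was at 80.1, 91.2 and 87.8 CPM in Tn, 101, 51.7 and 37.8 CPM in Teff1, 55.2, 53.3 and 71.1 CPM in Teff2, and 47.3, 67.2 and 67.1 CPM in Tex. All 6 day 5 libraries were below all naive ones, while Teff1 replicate 1 was above them. Means were 59.9 ± 9.79 CPM in Teff2, 60.5 ± 11.5 in Tex, 63.6 ± 33.4 in Teff1 and 86.4 ± 5.65 in Tn (SD, n = 3 each). No comparison passed in edgeR's fit, with a log2 fold change of -0.44 (SE 0.30, adjusted p = 0.24) in Teff1, -0.53 (SE 0.30, adjusted p = 0.164) in Teff2 and -0.51 (SE 0.30, adjusted p = 0.168) in Tex. Without Teff1 replicate 1 the Teff1 difference was -0.93 and was called (adjusted p = 0.00608). With only the 2 groups compared in the fit, Teff2 and Tex were called lower too (adjusted p = 0.0292 and 0.0323).

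**Figure D2:**
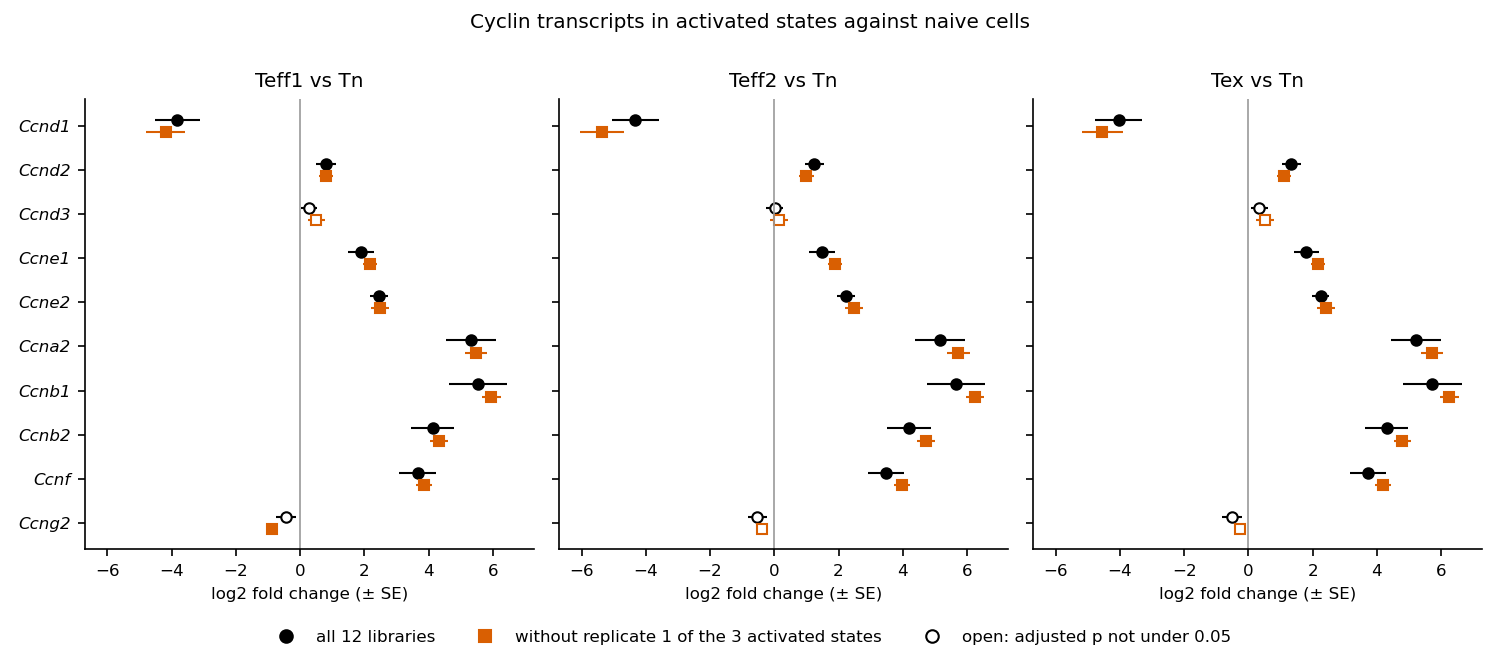
Log2 fold change ± SE of each cyclin in Teff1, Teff2 and Tex against Tn from edgeR's fit, on all 12 libraries (black circles) and without replicate 1 of the 3 activated states (orange squares), with open symbols where the adjusted p is not under 0.05. The mitotic cyclins move farther from naive cells without replicate 1 (Ccnb1 in Teff2 from 5.66 to 6.25), and Ccng2 in Teff1 becomes a called decrease (-0.88).

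Replicate 1 of the cultured states stood apart in these genes. In Teff2, replicate 1 lay below the mean of replicates 2 and 3 by a log2(CPM + 0.5) difference of -3.14 for Ccnb1, -2.74 for Ccna2, -2.43 for Ccnb2, -1.91 for Ccnf and -1.27 for Ccne1. Tex had the same 5 genes at least 1 below, at -2.31 for Ccnb1, -1.94 for Ccna2, -1.90 for Ccnb2, -1.57 for Ccnf and -1.04 for Ccne1. The D-type genes did not share this: Ccnd2 was above by 0.82 in Teff2 and 0.80 in Tex, Ccnd1 above by 0.96 and 0.70, and Ccnd3 differed by -0.06 and -0.19. Ccne2 differed by -0.47 and -0.20, and Ccng2 by -0.16 and -0.50. Of all 14332 genes, 6.53% in Teff2 and 5.76% in Tex were at least 1 below in replicate 1. No cyclin differed by 1 or more between replicates 2 and 3 of any activated state. Of all genes, 2.78% did so in Teff1, 5.14% in Teff2 and 3.86% in Tex, so nothing particular to the cyclins is read from this. In Tn, Ccna2 and Ccnb2 differed that much between replicates 2 and 3 (-1.07 and -1.04), beside 5.93% of all genes.

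At day 2 the gap was narrower. In Teff1 replicate 1, Ccnb1 differed by -1.34 and Ccng2 by 1.19, and the other cyclins by -0.69 (Ccne1) to 0.61 (Ccnd1) (3.98% of all genes were at least 1 below). The sum of 7 markers of dividing cells was 4376, 3352 and 4026 CPM in Teff1 replicates 1, 2 and 3, 1496, 3804 and 3450 CPM in Teff2, and 1619, 3460 and 3315 CPM in Tex, against 332 to 442 CPM in Tn. Day 5 replicate 1 was thus low in this sum as it was in the mitotic cyclins. Cdkn1a encodes the CDK inhibitor p21 and is a target of p53. At day 5 it ran the other way, at 553, 162 and 169 CPM in Teff2 and 698, 218 and 251 CPM in Tex. Ccng1, a cyclin that is also a p53 target, was at 324, 146 and 176 CPM in Teff2 and 359, 138 and 171 CPM in Tex. At day 2 these genes did not run opposite to the sum of markers of dividing cells. In Teff1, Cdkn1a was at 133, 44.8 and 16.3 CPM and Ccng1 at 181, 123 and 109 CPM. Both were highest in replicate 1, as was the sum of markers of dividing cells. Against the mitotic cyclins the order was opposite at day 2 too. Ccna2, Ccnb1, Ccnb2 and Ccnf were lowest in Teff1 replicate 1 and highest in replicate 3 (Ccnb1 at 66.4, 132 and 217 CPM). What set replicate 1 apart was not tested, and no label gives a batch.

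**Figure D3:**
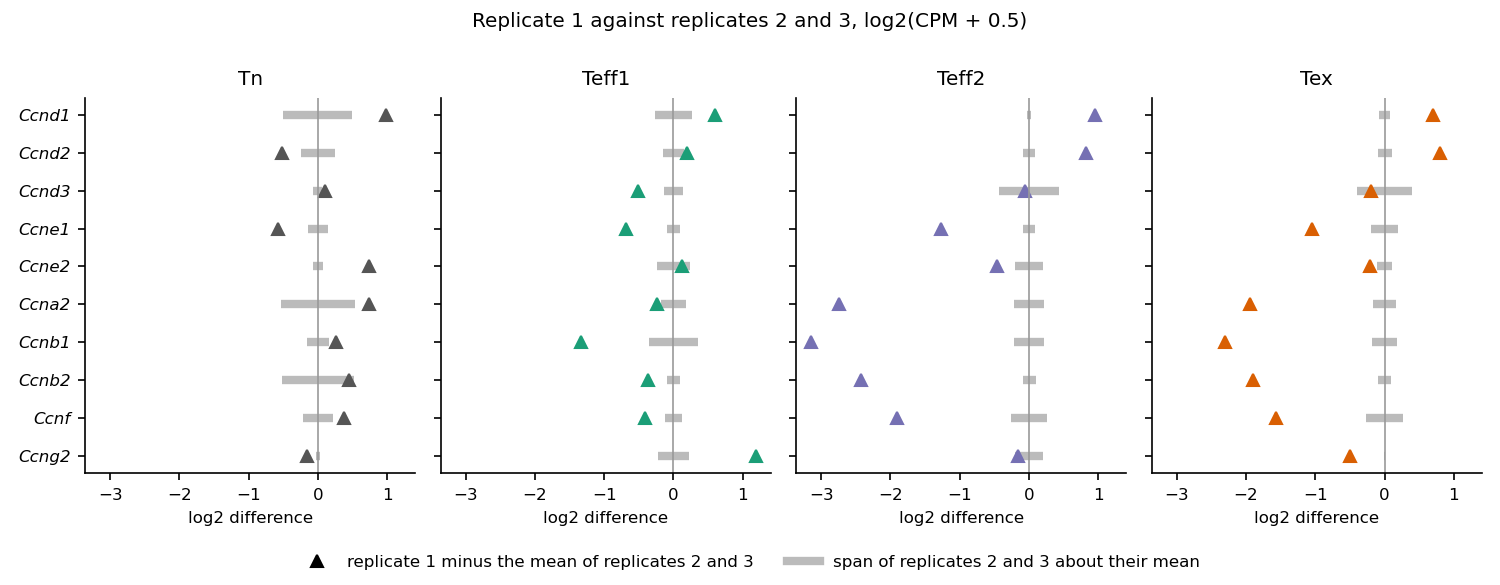
Replicate 1 minus the mean of replicates 2 and 3 of the same state, in log2(CPM + 0.5), for each cyclin (triangles), with the span of replicates 2 and 3 about their mean in grey. In Teff2 and Tex Ccna2, Ccnb1, Ccnb2 and Ccnf lie at -3.14 to -1.57 while Ccnd2 lies at 0.80 to 0.82, and in Tn no cyclin is as far as 1 from the other 2 replicates.

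Without replicate 1 of the 3 activated states, 7 cyclins were again higher than in Tn in each state, and the mitotic differences grew. In that fit 28.4% of 14798 genes were higher and 27.8% lower in Teff1, 30.3% and 27.1% in Teff2, and 32.1% and 29.1% in Tex. Ccnb1 was up by a log2 fold change of 5.95, 6.25 and 6.26 in Teff1, Teff2 and Tex, with an SE of 0.29 in each, against an SE of 0.91 to 0.92 over all libraries. In Teff2 its fold went from 50.5 to 76.1, and that of the Ccnd1 decrease from 20.0 to 41.6. Ccna2 was up by 5.48, 5.73 and 5.71, Ccnb2 by 4.31, 4.73 and 4.80, and Ccnf by 3.85, 3.97 and 4.19. In Teff1, 2 cyclins were lower, Ccnd1 and Ccng2 (log2 -0.88, SE 0.18, adjusted p = 0.00268 by edgeR), and in Teff2 and Tex Ccnd1 was the single one. There Ccng2 differed by -0.39 (adjusted p = 0.0842) and -0.27 (adjusted p = 0.206) by edgeR. Ccnd3 differed by 0.51, 0.13 and 0.51 in Teff1, Teff2 and Tex and was not called (adjusted p = 0.146, 0.707 and 0.135 by edgeR).

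Without Tn replicates 1 and 3, Tn rests on replicate 2 alone, which is assumed to vary like the other libraries. There 9.96% of 15080 genes were higher and 10.0% lower in Teff1, 11.3% and 10.8% in Teff2, and 13.1% and 13.1% in Tex. Ccna2, Ccnb1, Ccnb2, Ccnf and Ccne2 stayed called higher in all 3 states, with Ccna2 at 80.1-fold in Teff1, 72.0-fold in Teff2 and 74.3-fold in Tex (39.9-fold, 35.8-fold and 37.0-fold over all libraries). Ccnb1 was at 57.2-fold, 62.2-fold and 64.9-fold, less than Ccna2 in each state. Ccnb2 went from 17.4-fold to 31.0-fold in Teff1, from 18.2-fold to 32.5-fold in Teff2 and from 19.7-fold to 35.1-fold in Tex. Ccnd2 and Ccne1 kept their direction and were no longer called in any state (for Ccne1 adjusted p = 0.1 in Teff1, 0.193 in Teff2 and 0.103 in Tex, and for Ccnd2 0.521, 0.188 and 0.141). Ccng2 differed by -0.53, -0.62 and -0.61 (adjusted p = 0.427, 0.352 and 0.345 by edgeR) and Ccnd3 by 0.23, -0.03 and 0.30 (adjusted p = 0.713, 0.963 and 0.616 by edgeR), with no call.

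Between day 2 and day 5, no cyclin passed the test. For Teff2 against Teff1, 0 of 10 were called by edgeR (0 at an unadjusted p under 0.05, and 0 by DESeq2 and by limma on the authors' matrix), where 0.67% of all genes were called in either direction. Without replicate 1 the count was again 0, with 0.953% of genes called. In size, the log2 differences ran from -0.50 for Ccnd1 (SE 0.72) to 0.44 for Ccnd2 (SE 0.30), and those of the mitotic cyclins were -0.16 (Ccna2, SE 0.63), 0.12 (Ccnb1, SE 0.73), 0.06 (Ccnb2, SE 0.58) and -0.18 (Ccnf, SE 0.50). All 10 overlapped between the groups, whereas 14.6% of all genes did not.

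Between the TIM-3+ and TIM-3- cells of day 5, no cyclin passed the test over all libraries. For Tex against Teff2, 0 of 10 passed by edgeR (0 at an unadjusted p under 0.05, and 0 by DESeq2 and by limma), where 0.00698% of genes, a single gene, was called. Without replicate 1 no gene was called (0%) in this comparison. The differences were largest for Ccnd3 (log2 0.33, SE 0.26), Ccne1 (0.32, SE 0.38), Ccnd1 (0.28, SE 0.74) and Ccnf (0.26, SE 0.50), and the other 6 were at most 0.12 in size. The groups overlapped for all 10 cyclins, and 4.81% of all genes did not overlap.

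Libraries of equal number at day 5 deviated together (r = 0.85, 0.78 and 0.75 across genes), so Tex and Teff2 were also compared within the 3 pairs, where 1.69% of 13096 genes were called. Within pairs, 9 cyclins were tested, Ccnd1 being too low, and 0 were called at an adjusted p under 0.05. An unadjusted p under 0.05 was found for 3 of them, and for 14 of 73 genes of the lists described below. The share of all genes under that cut was not counted, so nothing particular to the cyclins is read from the 3. Ccnd3 was higher in Tex by 0.25, 0.34 and 0.41 in pairs 1, 2 and 3, as differences in log2(CPM + 0.5), and the blocked fit gave 0.33 (SE 0.08, adjusted p = 0.0751 by edgeR). Ccne1 was higher by 0.49, 0.37 and 0.16 (blocked 0.34, SE 0.09, adjusted p = 0.102 by edgeR), and Ccnf by 0.54, 0.21 and 0.20 (blocked 0.30, SE 0.09, adjusted p = 0.155 by edgeR). All 3 pairs lay in the same direction for these genes. Ccna2, Ccnb1 and Ccnb2 were higher by 0.78, 0.84 and 0.59 in pair 1, and by -0.07 to 0.07 in pairs 2 and 3, so that their day 5 difference rested on pair 1. Within pairs 2 and 3 alone, where 3.15% of genes were called higher, Ccnd3 was called (log2 0.38, SE 0.08, adjusted p = 0.0121 by edgeR), and no other cyclin was. That fit, added after the data were seen, leaves little to measure the spread of a gene, so its SE leans on spread shared across genes. It is not read as stronger than the fit on all 3 pairs.

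**Figure D4:**
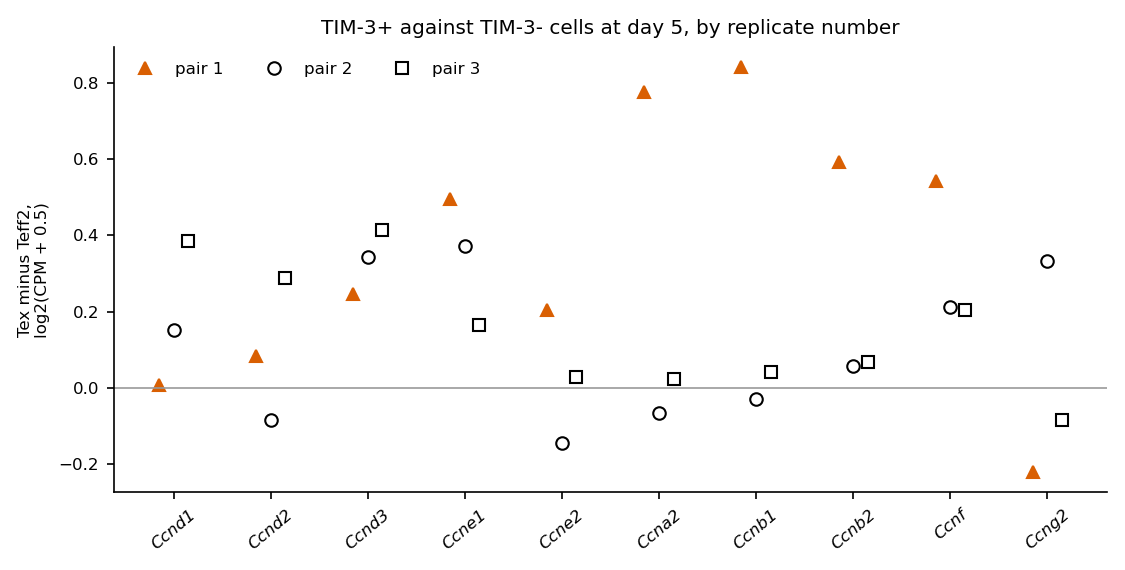
Difference between Tex and Teff2 libraries of the same replicate number, in log2(CPM + 0.5), for each cyclin, with pair 1 as filled triangles and pairs 2 and 3 as open circles and squares. Ccnd3 is higher in Tex in all 3 pairs (0.25 to 0.41), and Ccna2 and Ccnb1 are 0.78 and 0.84 higher in pair 1 and within 0.07 of 0 in the others.

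The kinases that cyclins bind were higher with them. Of 12 CDKs and their activators, 10 rose and 0 fell in each activated state against Tn (median log2 2.07, 1.68 and 1.72 in Teff1, Teff2 and Tex), where 24.5%, 25.6% and 27.3% of all genes rose. Cdk1, the mitotic kinase, was at 3.91, 2.32 and 2.79 CPM in Tn, 89.3, 98.5 and 148 CPM in Teff1, 27.2, 210 and 130 CPM in Teff2, and 44.2, 208 and 137 CPM in Tex. Its replicate 1 was low at day 5 like that of the cyclins it binds, and its log2 fold change was 5.21 to 5.43 in the 3 states. Cdc25c, the phosphatase that activates Cdk1, rose by 5.23, 5.47 and 5.50, and Cks1b, a small CDK-binding protein, by 4.87, 4.46 and 4.68. Cdk4 and Cdk6, the partners of the D-type cyclins, rose by 1.33 to 1.55 and by 2.54 to 2.58.

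Of 11 brakes on CDKs tested (Cdkn2b was too low), 5 rose and 2 fell in Teff1, 4 and 3 in Teff2, and 5 and 2 in Tex, with medians of 0.62, 0.44 and 0.23. Over all genes 24.5% rose and 24.5% fell in Teff1, 25.6% and 23.3% in Teff2, and 27.3% and 25.6% in Tex, and nothing particular to the 11 brakes is read from these counts. Cdkn1a rose from 2.91 ± 3.32 CPM in Tn, by a log2 fold change of 4.48, 6.67 and 7.07 (SE 1.01 to 1.12), with adjusted p = 0.00345, 0.00052 and 0.000336 by edgeR. Wee1, the kinase that restrains Cdk1, rose by 3.28, 2.66 and 2.63, and Cdkn2c, an inhibitor of Cdk4 and Cdk6, by 2.47, 2.38 and 2.67. Cdkn1b, which encodes p27 and holds Cdk2 in check in resting T cells, fell from 266 ± 11.7 CPM in Tn to 85.0 ± 33.7, 93.0 ± 30.1 and 75.8 ± 8.12 CPM (log2 -1.64, -1.51 and -1.81).

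Of 12 E2F, B-Myb and FoxM1 factors, which control the transcription of cyclin genes, 10 rose and 0 fell in each state, with medians of 3.05, 2.58 and 2.65. E2f8 and E2f7, the repressor E2Fs, rose by 4.58, 4.10 and 4.20 and by 4.03, 4.03 and 4.12, and Mybl2 (B-Myb) by 4.37, 4.12 and 4.11. Of 14 genes of cyclin destruction, 9, 7 and 7 rose and 0 fell (medians 0.79, 0.62 and 0.51). Those that rose most belong to the mitotic ubiquitin ligase APC/C: Ube2c, its E2 enzyme, by 5.18, 5.31 and 5.57, and Cdc20, its activator, by 4.18, 3.70 and 4.00. Skp2, which targets p27 for destruction, rose by 2.20, 2.15 and 2.03 in Teff1, Teff2 and Tex, and Fbxo5, an APC/C inhibitor, by 2.38, 1.80 and 1.88.

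Of 13 other cyclins tested, many of which serve transcription (Ccna1 and Ccnb3 were too low), 1 rose and 5 fell in Teff1, 2 rose and 3 fell in Teff2, and 2 rose and 5 fell in Tex, with medians of -0.16, -0.39 and -0.27. Beside the shares of all genes given above, nothing particular to these 13 genes is read from the counts. Ccnl1 (cyclin L1, of RNA splicing) fell from 336 ± 73.3 CPM in Tn to 166 ± 21.9, 156 ± 18.2 and 140 ± 10.9 CPM, and Ccnt2 (a partner of the elongation kinase Cdk9) fell, with log2 changes of -0.78, -0.84 and -0.94. Ccng1 rose by 1.30 in Teff2 and 1.35 in Tex, and in Teff1 it differed by 0.65 (adjusted p = 0.167 by edgeR). Among 14 growth inputs to D cyclins and FoxO targets, 1 rose and 9 fell in Teff1, and 2 rose and 9 fell in Teff2 and in Tex (medians -1.66, -1.47 and -1.50). Myc rose by 1.79, 1.60 and 1.69. Klf2, a FoxO1 target of quiescent T cells, fell from 749 ± 143 CPM to 11.1 ± 1.73, 3.22 ± 1.08 and 3.17 ± 2.73 CPM, and Pik3ip1, an inhibitor of PI3 kinase, fell too, with log2 changes of -2.90, -2.50 and -3.23. Ccng2, itself a FoxO target, did not pass, with log2 differences of -0.44 to -0.53.

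Without replicate 1 of the activated states, 10 to 11 of 12 CDKs and activators, 10 of 12 E2F, B-Myb and FoxM1 factors and 9 of 14 genes of cyclin destruction rose against Tn in each state, and 11 of 14 growth inputs and FoxO targets fell (counts by edgeR, added after the data were seen). In Teff2, 1 gene of cyclin destruction fell in that fit. Of all genes in that fit, 28.4% were higher and 27.8% lower in Teff1, 30.3% and 27.1% in Teff2, and 32.1% and 29.1% in Tex. With Tn replicate 2 as the only naive library, median log2 fold changes in Teff1, Teff2 and Tex kept these directions. They were 2.11, 1.72 and 1.76 for CDKs and activators, and 3.22, 2.87 and 2.87 for the E2F, B-Myb and FoxM1 factors. For cyclin destruction they were 0.81, 0.65 and 0.54, and for growth inputs and FoxO targets -1.66, -1.42 and -1.34. Of the brakes, 5 of 10 rose and 2 to 3 fell without replicate 1. Their medians with the single naive library were 0.80, 0.61 and 1.01 in Teff1, Teff2 and Tex. Of the 13 other cyclins, 2 rose and 3 to 4 fell without replicate 1, and their medians with the single naive library were -0.29, -0.30 and -0.25. Beside the shares of all genes, nothing particular to the brakes or to the other cyclins is read from these counts.

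Between activated states these 6 lists held no call by edgeR in the fit without the replicate block. In Teff2 against Teff1, 0 of 76 genes passed, with 7 at an unadjusted p under 0.05, and DESeq2 called 2 (Klf2 and Btg2) and limma 0. With the replicate block, where 277 of all genes were called, 2 of 72 list genes were called. They were Cdkn1a (log2 2.42, adjusted p = 0.00619) and Klf2 (log2 -1.80, adjusted p = 0.031), both by edgeR. The share of all genes called in that fit is not given here, so nothing particular to the lists is read from the 2 calls. Replicate numbers are not shown to pair Teff2 with Teff1: deviations correlated at r = 0.51, 0.24 and 0.03 for replicates 1, 2 and 3. Teff2 replicate 2 and Teff1 replicate 3 reached r = 0.51 too. In Tex against Teff2, 0 of 76 passed, with 1 at an unadjusted p under 0.05, and DESeq2 and limma called 0. Within the day 5 pairs Cdkn1a was called (log2 0.44, adjusted p = 0.0377 by edgeR), in the same fit in which Ccnd3 missed the threshold.

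The genes most like each cyclin across the 12 libraries were found by Pearson's r of log2(CPM + 0.5), as a description, since the libraries fall into naive and activated clusters and share depth and cell mixture. Ccna2 ran closest to Birc5 (r = 0.999), Hmmr (0.998) and Cdca8 (0.998), and Ccnb2 to Kif2c (0.998), Hmmr (0.997) and Ube2c (0.997), all genes of mitosis. For Ccnf these were Troap (0.998), Ube2c (0.997) and Cdk1 (0.997), and for Ccnb1 Gtf2f2 (0.996), Troap (0.995) and Ube2c (0.995). Ccne2 was nearest to Gins2 (0.990) and Tipin (0.989), of DNA replication, and Naa20 (0.987), and Ccne1 to Ndufv1 (0.994), Tubg1 (0.991) and Eif3l (0.988). Ccnd1 was nearest to Abi3 (0.987), Emr4 (0.986), a myeloid surface receptor, and Rufy1 (0.981). Ccnd2 ran closest to Golga7 (0.960), Rpl15 (0.956) and Mapkapk3 (0.949), Ccnd3 to Adrm1 (0.967), Rnf126 (0.943) and Ppp4c (0.939), and Ccng2 to Fbxo11 (0.935), Ppp2r5e (0.877) and Vps37b (0.876).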

How the data were processed

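CD8+ T cells were profiled by RNA-seq in 12 libraries, and the 4 Hi-C samples of the series were not analysed here. The authors deposited raw counts per gene (34573 symbols) and a normalized matrix on a log2 scale (21574 genes), whose transformation is not stated, so the deposited log2 values served as an alternative only. Per the submitters' processing notes the assembly was mm10, and HISAT2, HTSeq and DESeq2 were among the tools named, with no versions. The counting is not stated to use strand, and the library kit is not stated to keep it, so antisense and overlapping transcripts cannot be told apart.

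Counts were tested here with edgeR 4.0.16 (R 4.3.3): TMM factors, edgeR's filter by expression (14332 genes kept), a quasi-likelihood F test on all 12 libraries with state as the term, and Benjamini-Hochberg adjustment over all genes, called at an adjusted p under 0.05. SE is the log2 fold change divided by the square root of F. Only the edgeR fit on all 12 libraries without the block was checked on simulated counts, at a lower dispersion than was found here. The blocked fits, the fits without libraries, the permutation tests and the motif search were not checked in this way. Values per library are CPM, with 0.5 added before logs. Depth was 14.7 to 21.2 M counts per library. Ratios within a library were tested with exact two-sided permutation tests (scipy 1.17.1). Motifs were searched on both strands of RefSeq promoters.

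The cyclins, the gene and marker lists and the motifs were chosen with earlier results of these data known. One further marker list is not reported here. Beyond the cyclins, the text names up to 3 called genes per list with the largest fold change in the main direction and 1 in the other, at 2 CPM or more, and the 3 genes most like each cyclin. The genes Cdk4, Cdk6 and, in Teff1, Ccng1 were added as partners or for comparison after their values were seen.

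Replicate numbers were taken to pair Tex with Teff2, from the data and not from a label: deviations from the group mean correlated across genes at r = 0.85, 0.78 and 0.75 between libraries of equal number, and r was at most 0.12 between others. In the other comparisons not every equal-number r was over 0.1. For Teff2 against Teff1 it was 0.51, 0.24 and 0.03, while Teff2 replicate 2 and Teff1 replicate 3 reached 0.51. Against Tn it was 0.0049 to 0.14. The numbers are thus not shown to pair libraries in those comparisons, and the block there is an alternative only. The common dispersion was 0.0994 over all libraries and 0.00941 within the day 5 pairs.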

Additional observations from a re-analysis of the deposited data

How the results depend on the processing

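Of 687 alternatives to the log2 fold changes of the cyclins, 618 kept both direction and side of the threshold, 13 lost a call, 7 gained one and 49 changed sign. None of the sign changes touched a called value, and of 336 alternatives to called values 323 kept the call. The 105 alternatives to the ratios within a library all moved by less than 1 SD. Leaving out 1 library at a time, 7 to 8 cyclins were called in Teff1 against Tn and 8 in Teff2 and Tex against Tn. Without Tn replicates 1 and 3, 5 cyclins were called in Teff1 (8 over all libraries), and the genes called fell from 7012 to 3015 in Teff1, from 7010 to 3334 in Teff2 and from 7584 to 3944 in Tex against Tn, where Tn is 1 library. Limma on the authors' log2 matrix gave smaller sizes (Ccnb1 in Teff1 at 3.30 against 5.54, Ccna2 at 3.37 against 5.32, Ccnd1 at -2.34 against -3.83), and of the called increases it lost Ccnd2 in Teff1 (0.58, adjusted p = 0.0644), as did upper-quartile scaling (0.67, adjusted p = 0.0896). The cause was not tested.

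Sign changes fell on small differences. In Teff2 against Teff1, leaving out replicate 1 of the activated states gave Ccna2 0.25, Ccnf 0.11 and Ccng2 0.48, the replicate block gave Ccnb1 -0.27, Ccnb2 -0.25 and Ccng2 0.035, and limma gave Ccnb1 -0.19 and Ccnb2 -0.20. In Tex against Teff2, leaving out replicate 1 gave Ccne2 -0.059 and Ccna2 -0.018, and with the block as well -0.061 and -0.023. For Ccnd3 in Teff2 against Tn, upper-quartile scaling gave -0.11, no Tn replicates 1 and 3 -0.032, the block -0.036 and limma -0.022, and leaving out 1 library gave -0.18 to 0.21. Leaving out 1 library in Teff2 against Teff1 gave Ccna2 -0.67 to 0.33, Ccnb1 -0.43 to 0.63, Ccnb2 -0.32 to 0.52, Ccnf -0.66 to 0.23 and Ccng2 -0.36 to 0.42. In Tex against Teff2 it gave Ccna2 -0.44 to 0.58, Ccnb1 -0.45 to 0.63, Ccnb2 -0.34 to 0.53, Ccnd1 -0.32 to 1.42, Ccnd2 -0.22 to 0.42, Ccne2 -0.13 to 0.23, Ccnf -0.18 to 0.75 and Ccng2 -0.066 to 0.17.

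With the replicate block, 277 genes were called in Teff2 against Teff1 (96 without it) and 221 in Tex against Teff2 (1 without it), and 0 cyclins in either. The block without replicate 1, added after the data were seen, called 688 genes and 1 cyclin (Ccnd3) in Tex against Teff2. Against Tn the block added Ccng2, lower in Teff2 (-0.54, adjusted p = 0.0441 by edgeR) and Tex (-0.53, adjusted p = 0.0298 by edgeR), and it changed no other cyclin's call. Replicate numbers are not shown to pair libraries in comparisons other than Tex against Teff2. For Teff2 against Teff1, DESeq2 called 499 genes, a fit of the 2 groups 39, and fits without 1 library 23 (without Teff1 replicate 3) to 106 (without Teff2 replicate 1). For Tex against Teff2, DESeq2 called 5 genes, and upper-quartile scaling, a fit of the 2 groups, limma and the fit without replicate 1 called 0, as against 0 to 1 without 1 library. The share of Ccnd3 among D-type transcripts per length was planned and not run, since exon lengths were not at hand, and the ratio of Ccnd3 to Ccnd2 was used in its place after the files were seen. Depth limits Ccnd1, with 3 to 18 counts in an activated library.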
